A study of Mus musculus with 18 samples.

Results

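Integrins are the receptors by which mesenchymal cells hold on to the matrix. The 10 integrin genes described here (*Itga1*, *Itga2*, *Itga3*, *Itga5*, *Itga6*, *Itga8*, *Itga11*, *Itgav*, *Itgb1* and *Itgb3*) were taken by name from a list of integrins known in mesenchymal cells, and all 10 matched a row among the 38924 Ensembl genes of the count table. Each had enough counts to be tested, among 16577 tested genes. RNA was measured in adult mouse fibroblasts of heart (HF), kidney (KF) and tail (TF), isolated from male mice aged 10 weeks that carried Rosa mT/mG, a red membrane reporter, on a C57BL/6 background. After 10 days in culture, between 400000 and 500000 cells in gelatin foam were placed under the kidney capsule of syngeneic C57BL/6J recipients aged 10 to 11 weeks. CD45−;TdTomato+ cells recovered after 3 days are HFs, KFs and TFs, and cells of the same isolations replated for 3 additional days are the cultured controls (HFc, KFc, TFc). There were 6 groups with 3 libraries in each. The transplant gate marks donor cells without a fibroblast marker, all grafts shared 1 site in the kidney, and transplantation, recovery and sorting cannot be told apart from each other in the comparison with cultured cells. The study calls the replicates of each condition biological. The labels do not say which animals or cultures they came from, and p-values measure the spread between these libraries.

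Integrins are dimers of an alpha and a beta subunit. The alpha subunit largely sets the ligand: alpha 1, alpha 2 and alpha 11 bind collagens, alpha 3 and alpha 6 bind laminins, and alpha 5, alpha 8 and alpha v bind ligands with an RGD motif such as fibronectin, nephronectin and latent TGF-beta. The beta 1 subunit pairs with every alpha subunit on this list, and beta 3 pairs with alpha v. Inside the cell the beta tails bind talin and kindlin, which link the receptor to actin, and fibroblasts use these contacts to spread, to pull on the matrix and to activate TGF-beta.

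Promoter sequence was available for 8 of the 10 genes. The 250 bases before the start site are shown for *Itgb1*, the common partner that fell in all 3 organs, and for *Itga8* and *Itga11*, whose changes differed between organs. They are from RefSeq on GRCm38.p6, read 5′ to 3′ on the strand of the gene, at chr8:128685404-128685653 (plus strand), chr2:12301945-12302194 (minus strand) and chr9:62677605-62677854 (plus strand). Capitals mark matches to GGGCGG (the SP1 motif) or GGAATG (the TEAD motif) on either strand.
Itgb1: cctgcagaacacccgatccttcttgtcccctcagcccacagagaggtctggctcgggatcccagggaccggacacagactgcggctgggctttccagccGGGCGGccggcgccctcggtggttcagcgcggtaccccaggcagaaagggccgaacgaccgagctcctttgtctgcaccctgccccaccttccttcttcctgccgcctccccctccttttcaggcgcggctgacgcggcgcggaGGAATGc
Itga8: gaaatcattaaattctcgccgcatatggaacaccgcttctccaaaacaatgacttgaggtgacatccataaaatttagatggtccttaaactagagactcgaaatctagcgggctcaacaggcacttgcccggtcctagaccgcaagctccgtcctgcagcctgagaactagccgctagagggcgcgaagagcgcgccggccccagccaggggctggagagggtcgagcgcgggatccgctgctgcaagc
Itga11: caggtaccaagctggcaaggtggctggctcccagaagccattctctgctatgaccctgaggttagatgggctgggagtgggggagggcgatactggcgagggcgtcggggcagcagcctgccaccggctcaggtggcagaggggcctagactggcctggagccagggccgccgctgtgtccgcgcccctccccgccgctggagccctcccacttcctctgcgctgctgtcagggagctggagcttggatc
The *Itgb1* promoter held GGGCGG with its first base 151 bases before the start and GGAATG 7 bases before it, without overlap. Neither motif was found in the *Itga8* or *Itga11* window, and none of the 3 windows held TGANTCA (AP-1), TATAAA or a CArG box. Of 32536 promoters of this length, 33% held GGGCGG, 12.6% GGAATG, 6.73% TGANTCA, 12.3% TATAAA and 1.48% a CArG box. GC content was 68% in *Itgb1*, 56.4% in *Itga8* and 68.4% in *Itga11*, against a median of 52.4% over all promoters. A match describes the letters only, and no binding was measured here.

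The 18 libraries held between 17927838 and 32245168 counts, and values below are CPM (gene counts scaled to the TMM-adjusted library size). One library stands apart. In the library labelled KFs replicate 3, 4 Y-linked genes (*Ddx3y*, *Eif2s3y*, *Kdm5d*, *Uty*) summed to 0.722 CPM and *Xist* was at 1492 CPM, whereas the other 17 libraries had 175 to 230 CPM and at most 0.404 CPM, so it goes against the label of male donor cells. It had 127 CPM over 5 simple epithelial markers against 19.5 and 21.7 CPM in KFs replicates 2 and 1, with *Krt8* at 70.2 CPM against 1.31 and 4.29. *Cdh1*, *Epcam* and *Krt18* were also higher in it than in those libraries, and *Krt19* was lower (8.62 CPM against 15.7 and 13.8 CPM). Fibroblast markers (8 genes) summed to 15460 CPM in KFs replicate 3, to 49790 and 60040 CPM in the other KFs libraries and to 12400 to 13220 CPM in KFc. Most of each sum was *Col1a1* and *Col1a2*. Each of the 8 genes was lower in KFs replicate 3 than in the other KFs libraries. Kidney results are therefore also given without it. Kidney tubule RNA was measured in the sorted cells: 10 proximal tubule markers summed to 118 to 1166 CPM in HFs, 60.1 to 124 CPM in KFs and 136 to 318 CPM in TFs, against 22.5 to 25.0, 103 to 111 and 19.5 to 21.8 CPM in HFc, KFc and TFc. Most of the KFc sum was *Lrp2*, at 92.05 to 99.19 CPM in KFc and 22.66 to 55.24 CPM in KFs. *Lrp2* and *Aqp1* were lower in every KFs library than in any KFc library, and each other gene of this list was higher. Markers of the loop, distal tubule and duct (6 genes) summed to 12.02 to 82.9 CPM in sorted and at most 0.846 CPM in cultured cells, and *Kap* (tubular androgen-regulated protein) was detected in all 9 sorted libraries and listed at 0 in all cultured ones. Endothelial markers (6 genes) summed to 22.7 to 41.8 CPM in sorted and 21.8 to 31.9 CPM in cultured cells. Most of each sum was *Pecam1*, at 20.48 to 29.77 CPM in sorted and 20.65 to 28.25 CPM in cultured cells. *Plvap* was at 0.7616 to 2.733 CPM in sorted and at most 0.2983 CPM in cultured cells. *Tie1* was at 0.2004 to 1.623 CPM in sorted and at most 0.03385 CPM in cultured cells. Sorted and cultured libraries overlapped for *Cdh5*, *Emcn* and *Kdr*. The defining keratinocyte genes *Krt5* and *Krt14* were at or under 0.295 CPM throughout. The 5 keratinocyte markers reached 188 CPM in KFs replicate 3 and 84.6 to 88.3 CPM in TFc through *Dsp*. In bulk samples fewer cells of a type and less RNA per cell cannot be told apart.

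To compare levels between genes, CPM was divided by the exon length of each gene in kb. *Itgb1* (chr8:128685654-128733200, plus strand), the common beta subunit, was the most abundant of the 10 in every group, with a mean of 425 CPM per kb in HFc, 432 in KFc and 242 in TFc, and 229 in HFs, 290 in KFs and 172 in TFs. The most abundant alpha gene was *Itgav* in both heart groups (76.4 CPM per kb in HFc, 41.4 in HFs) and *Itga5* in both kidney groups (116 in KFc, 102 in KFs) and both tail groups (38.5 in TFc, 37.8 in TFs). In tail cells *Itgav* followed at 32.2 and 31.9 CPM per kb, and the libraries of *Itga5* (32.1 to 45.4) and *Itgav* (28.2 to 36) overlapped in TFs but not in TFc. The tail order depended on the length used. With the longest transcript of each gene as length, *Itgav* led in both tail groups. That length is 4415 bases for *Itga5* and 7054 for *Itgav*, against exon unions of 4933 and 10744 bases. At the low end were *Itga2* and *Itga8*, each under 3 CPM per kb in every group. Leaving out KFs replicate 3 moved *Itga3* in KFs from 11.4 to 1.81 CPM per kb and from the fifth to the eighth place.

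**Figure D1:**
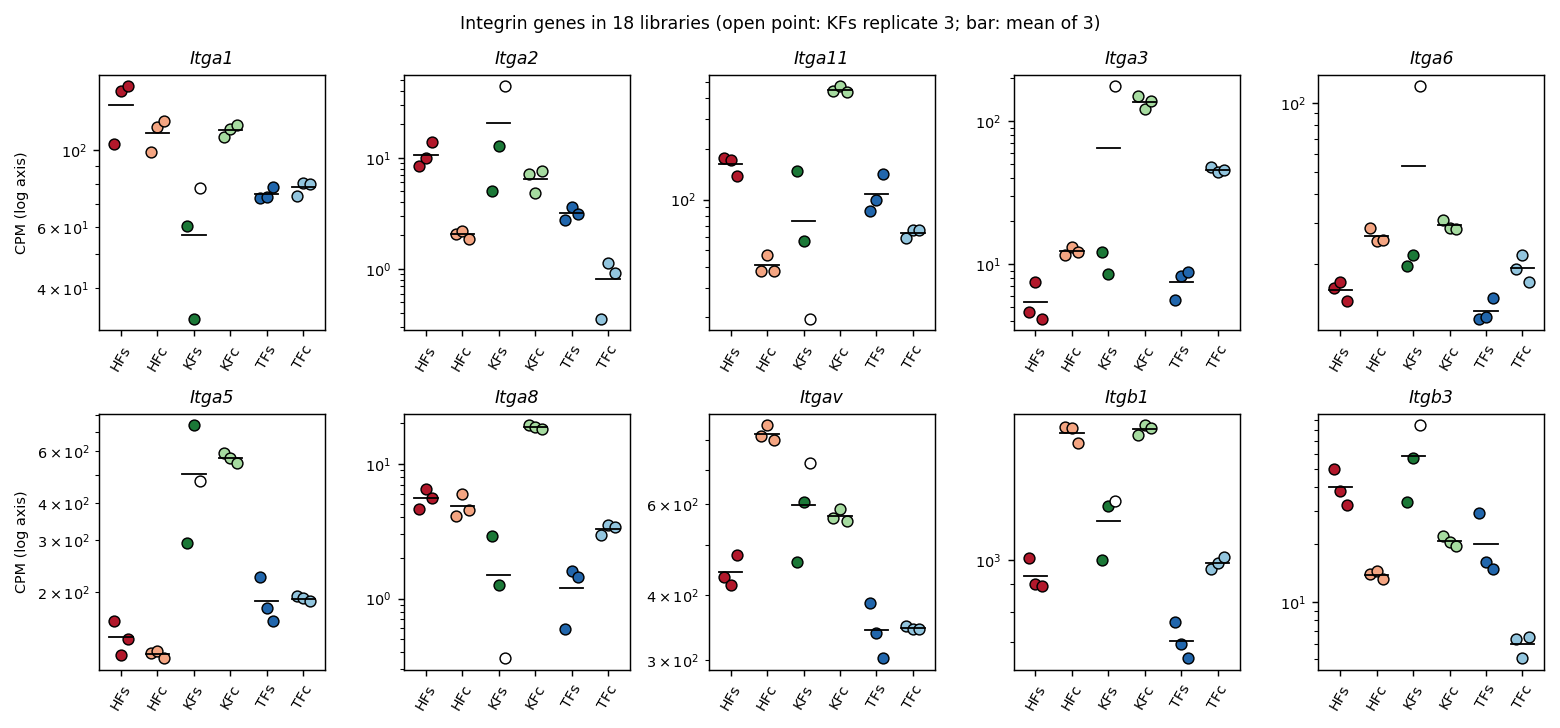
CPM on a log axis of the 10 integrin genes in the 18 libraries, by group (s, transplanted and sorted; c, cultured); points are libraries, the open point is KFs replicate 3 and the bar is the mean of 3. *Itgb3* is higher and *Itgb1* lower in every sorted library than in any cultured library of its organ. KFs replicate 3 lies far above the other KFs libraries for *Itga3* and *Itga6*, and the KFs libraries are widely spread for *Itga2*, *Itga8* and *Itga11*.

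Grouping the 8 alpha genes by ligand gave the share of each class in their summed CPM per kb, a ratio within a library. The RGD class led in every group. In heart cells the collagen class was 11.7% ± 0.81 (SD, n = 3) in HFc and 35.6% ± 3.04 in HFs, while the RGD class was 84.1% ± 0.656 and 62% ± 3.48. Kidney cells had the largest collagen class in culture, at 32.2% ± 1.1 in KFc, against 23.4%, 6.54% and 6.39% in the 3 KFs libraries, and an RGD class of 58.5% ± 0.375 in KFc against 73.6%, 91.7% and 73.9% in KFs. For tail cells the collagen class was 17.1% ± 1.05 in TFc and 26.3% ± 6.9 in TFs, and the RGD class 72.6% ± 0.756 and 70.9% ± 7.42. The laminin class was the smallest in culture (4.19% in HFc, 9.27% in KFc, 10.3% in TFc) and lower still in HFs (2.34%), TFs (2.78%) and KFs replicates 1 and 2 (3.06% and 1.75%), with 19.7% in KFs replicate 3. Sorted and cultured libraries did not overlap in any class in the heart, in the collagen and RGD classes in the kidney or in the collagen and laminin classes in the tail. These shares are descriptions without a test.

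**Figure D2:**
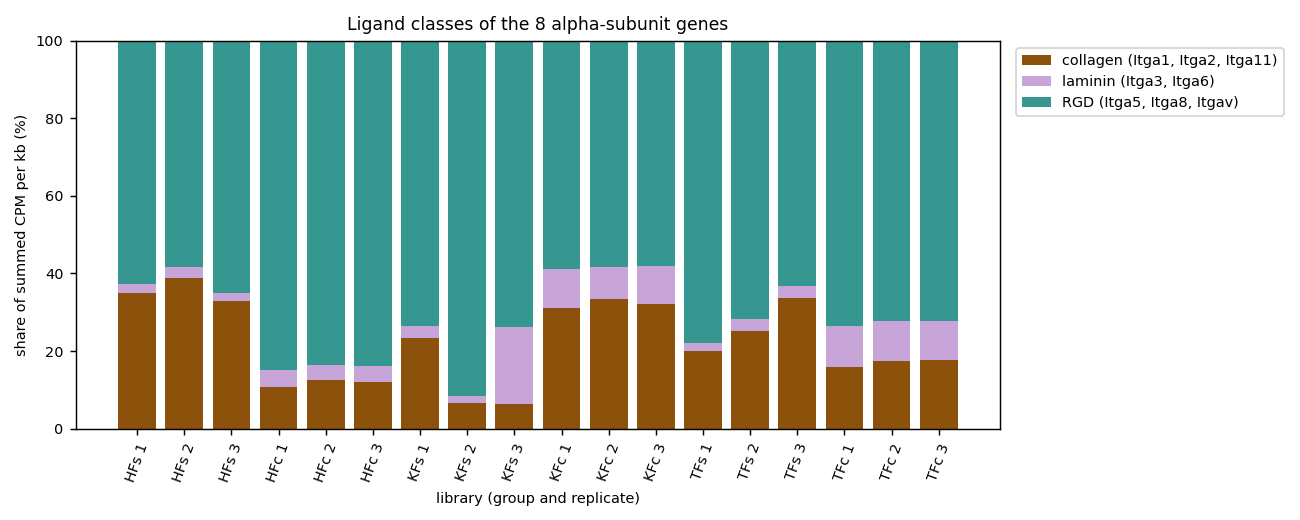
Stacked bars of the share (%) of collagen, laminin and RGD class genes in the summed CPM per kb of the 8 alpha-subunit genes, 1 bar per library. The collagen share rises from about the 11.7% mean of HFc to the 35.6% mean of HFs and is lower in KFs than in KFc, and KFs replicate 3 alone among sorted libraries has a laminin share above 3.24%.

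The main question was how each fibroblast type changed its integrins in the new site. Of all tested genes, 56.4% changed in the heart, 48.8% in the kidney and 38.8% in the tail (adjusted p under 0.05), so the members' counts sit in a strongly changed background. Among the 10 integrins, 5 changed in HFs against HFc, 6 in KFs against KFc and 5 in TFs against TFc. In the heart 3 were higher and 2 lower (of all genes 28% were higher and 28.4% lower), in the kidney 2 were higher and 4 lower (26.1% and 22.7%), and in the tail 2 were higher and 3 lower (18.6% and 20.2%). Without KFs replicate 3 the count was 7 in each organ, against 62.1%, 51.4% and 47.3% of all genes. With 10 members, a difference of 1 to 3 genes from the background share is no result about the list, and the description below is of the single genes. *Itga2*, *Itgb1* and *Itgb3* passed in all 3 organs with all libraries, and *Itga3*, *Itga6*, *Itga11*, *Itgb1* and *Itgb3* did without KFs replicate 3, with *Itga11* higher in heart and tail and lower in the kidney.

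**Figure D3:**
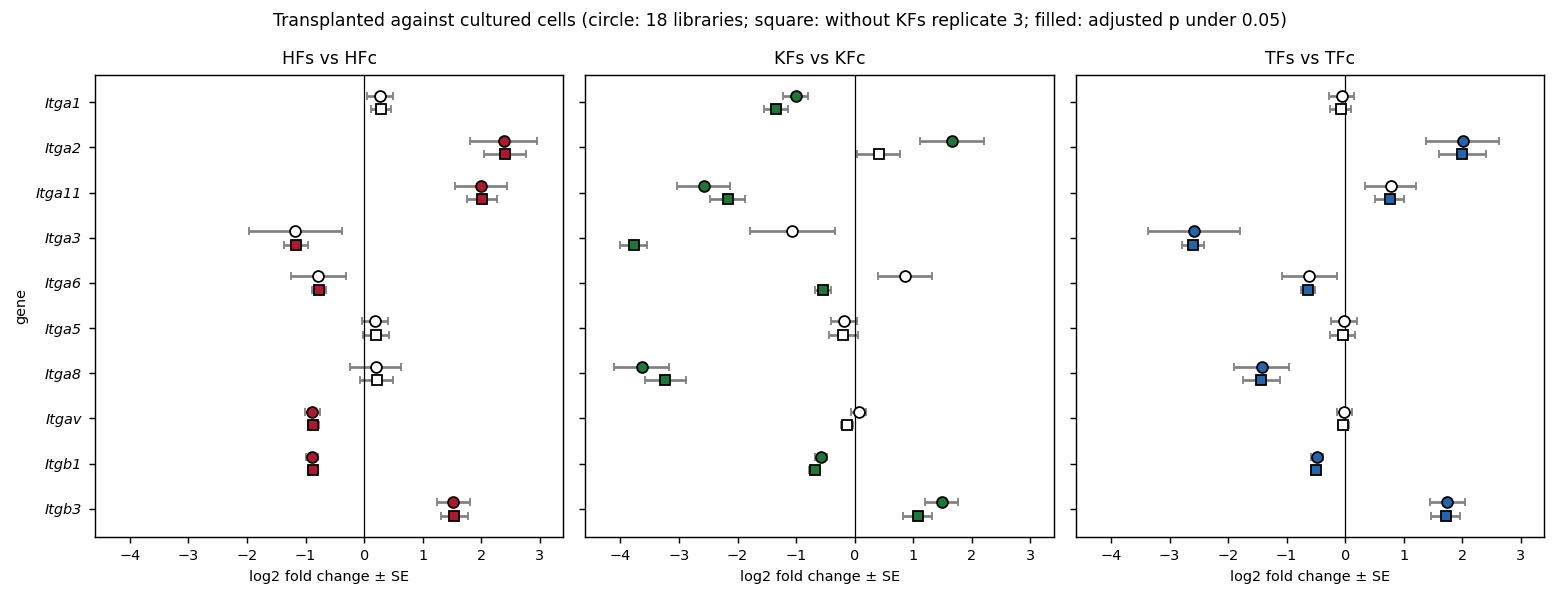
log2 fold change (± SE) of each integrin gene in transplanted against cultured cells of heart, kidney and tail; circles are the fit of all 18 libraries, squares the fit without KFs replicate 3, and filled symbols have an adjusted p under 0.05. *Itgb1* is left of 0 and *Itgb3* right of 0 in all panels, and the squares for *Itga3* and *Itga6* are filled left of 0 in all 3.

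The beta subunits moved in opposite directions. *Itgb1* was at 1009, 900 and 895 CPM in HFs and at 1776, 1773 and 1657 CPM in HFc. It fell 1.86-fold (log2 fold change −0.89, SE 0.10, adjusted p = 2.92e-06). In kidney cells it was at 1002, 1262 and 1291 CPM in KFs and at 1721, 1790 and 1771 CPM in KFc (1.49-fold lower, adjusted p = 0.000257). In tail cells it was at 763, 694 and 654 CPM in TFs and at 960, 986 and 1015 CPM in TFc (1.40-fold lower, adjusted p = 0.00138). All sorted libraries lay below all cultured ones of their organ, and without KFs replicate 3 the kidney fold was 1.60 (adjusted p = 1.87e-05). *Itgb3* (chr11:104608000-104670476, plus strand), the beta subunit of the vitronectin receptor, went the other way. It was at 49.6, 38.3 and 32.2 CPM in HFs against 14.0, 14.5 and 13.2 in HFc, and at 29.2, 16.2 and 14.8 CPM in TFs against 6.38, 5.06 and 6.53 in TFc. It rose 2.88-fold in the heart (log2 1.52, SE 0.29, adjusted p = 0.000363) and 3.34-fold in the tail (log2 1.74, SE 0.30, adjusted p = 0.000327). Kidney cells had 33.6, 56.6 and 84.3 CPM in KFs against 22.2, 20.6 and 19.7 in KFc, a rise of 2.79-fold with all libraries (adjusted p = 0.000536) and 2.11-fold without KFs replicate 3 (adjusted p = 0.00178). The mean of *Itgb1* per kb was 181 times that of *Itgb3* in HFc and 33.8 times in HFs, 122 and 29.5 times in KFc and KFs (36.3 without KFs replicate 3), and 238 and 50.6 times in TFc and TFs.

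Of the collagen receptors, *Itga11* (chr9:62677826-62783982, plus strand), the fibroblast receptor for fibrillar collagen, differed most between organs. It was at 176, 173 and 138 CPM in HFs against 37.9, 46.7 and 37.6 CPM in HFc, a rise of 3.98-fold (log2 1.99, SE 0.45, adjusted p = 0.00147). In kidney cells it was at 148, 57.2 and 19.6 CPM in KFs against 439, 471 and 433 CPM in KFc, a fall of 5.98-fold (log2 −2.58, SE 0.46, adjusted p = 0.000266). Every KFs library lay below every KFc library, and without replicate 3 the fall was 4.50-fold (adjusted p = 1.8e-05). Tail cells had 85, 98.9 and 142 CPM in TFs and 59.1, 65.6 and 65.9 CPM in TFc. These did not overlap, but the difference (log2 0.77, SE 0.44) did not pass (adjusted p = 0.174). It passed without KFs replicate 3 (log2 0.76, SE 0.25, adjusted p = 0.0206). The fit estimates 1 spread from all groups, and KFs replicate 3 enters it.

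*Itga2* (chr13:114833081-114932100, minus strand), which binds collagen with beta 1 and is best known from platelets and epithelia, was low. It was at 8.42, 9.87 and 13.8 CPM in HFs against 2.08, 2.2 and 1.87 in HFc (5.21-fold higher, adjusted p = 0.00243). In tail cells it was at 2.73, 3.64 and 3.14 CPM in TFs against 0.356, 1.14 and 0.921 in TFc (4.02-fold higher, adjusted p = 0.0197). That call was lost without TFs replicate 2 (adjusted p = 0.0525) and without TFc replicate 1 (adjusted p = 0.0864). In kidney cells it was at 5.05, 12.7 and 44.0 CPM in KFs against 7.09, 4.78 and 7.61 CPM in KFc, and the ranges overlapped. The kidney rise of 3.17-fold (adjusted p = 0.0186) rested on KFs replicate 3. Without it the log2 fold change was 0.41 (SE 0.36, adjusted p = 0.369), and without KFc replicate 2 it was 1.48 (adjusted p = 0.0732). Platelet markers (5 genes) summed to 6.08 to 8.54 CPM in HFs against 4.81 to 6.41 CPM in HFc. The sums were 1.04 to 6.15 CPM in KFs against 4.92 to 6.08 CPM in KFc. Tail cells had 1.87 to 3.32 CPM in TFs against 6.02 to 7.97 CPM in TFc. The platelet integrin gene *Itga2b* rose 3.71-fold in the heart (adjusted p = 0.000374). It did not pass in the tail (adjusted p = 0.148), and its kidney libraries overlapped. The part of platelet RNA in the *Itga2* values was not tested.

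*Itga1* (chr13:114953096-115101964, minus strand), a receptor for collagen IV and other collagens, changed in the kidney. It was at 60.4, 32.5 and 77.7 CPM in KFs against 110, 116 and 118 CPM in KFc, without overlap. It fell 2.01-fold (log2 −1.01, SE 0.22, adjusted p = 0.00137), and 2.54-fold without KFs replicate 3 (adjusted p = 4.64e-05). In heart cells (104 to 154 CPM in HFs, 98.6 to 122 in HFc) the log2 difference was 0.27 (SE 0.22, adjusted p = 0.303), and in tail cells (72.8 to 78.5 and 73.8 to 80.6 CPM) it was −0.06 (SE 0.22, adjusted p = 0.846). The gene overlaps *Pelo* and *Gm49395* on its own strand, and 2.92% of its 75-base windows are also found in *Gm49395*, so part of its reads could be assigned to either.

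The laminin receptors gave the clearest case of a single library deciding a call. *Itga3* (chr11:95044474-95076801, minus strand) pairs with beta 1 and is a laminin receptor prominent in kidney and skin epithelia. It was at 5.62, 8.27 and 8.74 CPM in TFs against 47.5, 43.8 and 45.1 CPM in TFc, a fall of 6.00-fold (log2 −2.59, SE 0.79, adjusted p = 0.0172). The adjusted p was 0.0615 without TFs replicate 1. In heart cells it was at 4.63, 7.54 and 4.14 CPM in HFs against 11.6, 13.2 and 12.2 CPM in HFc (log2 −1.18, SE 0.80, adjusted p = 0.219), although the groups did not overlap. KFs replicates 1 and 2 had 12.1 and 8.49 CPM against 149, 121 and 139 CPM in KFc, whereas KFs replicate 3 had 175 CPM, above every other library. The kidney log2 fold change was −1.07 (SE 0.72, adjusted p = 0.237) with it and −3.77 (SE 0.23, adjusted p = 3.44e-09) without it. Without it *Itga3* also passed as lower in the heart (2.24-fold, SE of the log2 value 0.20, adjusted p = 0.000129) and in the tail (6.06-fold, adjusted p = 3.93e-08).

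*Itga6* (chr2:71745616-71858416, plus strand), the laminin receptor that pairs with beta 1 or beta 4, showed the same dependence. It was at 15.6, 16.6 and 13.8 CPM in HFs against 28.7, 25.1 and 25.5 CPM in HFc, and at 11.5, 11.8 and 14.3 CPM in TFs against 19.0, 21.8 and 16.6 CPM in TFc. Neither pair of groups overlapped, yet neither difference passed with all libraries (log2 −0.78, adjusted p = 0.168, and log2 −0.61, adjusted p = 0.325). KFs replicates 1 and 2 were at 19.5 and 21.9 CPM and replicate 3 at 118 CPM, against 31.1, 28.5 and 28.4 CPM in KFc. The kidney value was 0.86 on the log2 scale (SE 0.46, adjusted p = 0.136) with replicate 3 and −0.54 (SE 0.13, adjusted p = 0.00229) without it. Without it *Itga6* was lower by 1.70-fold in the heart (adjusted p = 3.26e-05) and 1.55-fold in the tail (adjusted p = 0.000414). In KFs replicate 3 the epithelial partner gene *Itgb4* was at 66.2 CPM, against 2.12 to 5.58 CPM in the other kidney libraries. The part of the epithelial markers in these values was not tested. Of the 75-base windows of *Itga6*, 4.46% are shared with other genes, among them *Zfp975*.

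Among the RGD receptors *Itgav*, *Itga5* and *Itga8* each behaved differently. *Itgav* (chr2:83724397-83806916, plus strand), the alpha v subunit that binds latent TGF-beta, changed in the heart. It was at 435, 419 and 479 CPM in HFs against 813, 853 and 798 CPM in HFc, a fall of 1.85-fold (log2 −0.89, SE 0.13, adjusted p = 2.88e-05). Kidney cells had 465, 607 and 722 CPM in KFs against 558 to 587 CPM in KFc (log2 0.07, SE 0.13, adjusted p = 0.672; −0.13 without KFs replicate 3, adjusted p = 0.311). Tail cells had 303 to 387 CPM in TFs and 344 to 349 CPM in TFc (log2 −0.01, SE 0.13, adjusted p = 0.941). *Itga5* (chr15:103344286-103366763, minus strand), the fibronectin receptor, passed in no organ. It was at 122 to 160 CPM in HFs and 119 to 126 CPM in HFc, at 294, 735 and 477 CPM in KFs and 549 to 591 CPM in KFc, and at 159 to 224 CPM in TFs and 186 to 193 CPM in TFc. The log2 differences were 0.19, −0.18 and −0.03, each with an SE of 0.22. In the kidney it passed only when KFs replicate 2, its highest library, was left out (log2 −0.62, adjusted p = 0.00785).

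*Itga8* (chr2:12106632-12301922, minus strand), the nephronectin receptor of kidney mesenchyme and smooth muscle, was low in all groups. It was at 2.91, 1.25 and 0.361 CPM in KFs against 19.3, 18.7 and 18.3 CPM in KFc, a fall of 12.5-fold (log2 −3.64, SE 0.48, adjusted p = 1.65e-05), or 9.40-fold without KFs replicate 3 (adjusted p = 1.39e-06). In tail cells it was at 0.589, 1.59 and 1.44 CPM in TFs against 2.97, 3.53 and 3.38 CPM in TFc (2.69-fold lower, adjusted p = 0.0259). This call was lost without TFs replicate 1 (adjusted p = 0.101), TFc replicate 2 (adjusted p = 0.0619) or TFc replicate 3 (adjusted p = 0.056). Heart cells had 4.63 to 6.48 CPM in HFs and 4.12 to 5.96 CPM in HFc, which overlapped (log2 0.19, SE 0.43, adjusted p = 0.723). Leukocyte markers (6 genes) moved with it: they summed to 36.3 to 124 CPM in KFs against 368 to 386 CPM in KFc, to 35.3 to 41.1 CPM in TFs against 163 to 192 CPM in TFc, and to 79.7 to 139 CPM in HFs against 74.5 to 87.3 CPM in HFc. The smooth muscle and pericyte list (6 genes) summed to 119 to 260 CPM in KFs against 1664 to 1707 CPM in KFc. Its sums were 51.4 to 62.5 CPM in TFs against 188 to 197 CPM in TFc. In heart cells they were 30.9 to 60.5 CPM in HFs against 117 to 136 CPM in HFc, but the list was split there. *Mcam* (4.33 to 19.8 CPM in HFs, 67.6 to 80.1 in HFc), *Cnn1* and *Myh11* were lower in every HFs library than in any HFc library. *Des*, *Rgs5* and *Cspg4* were higher in every HFs library than in any HFc library. *Des* was also higher in every TFs library than in any TFc library. The part of either list in the *Itga8* values was not tested.

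The organ comparisons ask whether cells of different origin carry different integrins, first in culture. KFc had the highest mean of the 3 cultured groups for every member but *Itgav*, which was highest in HFc (821 CPM, against 570 CPM in KFc). The KFc and HFc libraries overlapped for *Itga1*, *Itga6* and *Itgb1*. Against TFc, 7 genes were higher in KFc and none lower, where 36.4% of all genes differed: *Itga2* (8.22-fold), *Itga11* (7.05-fold), *Itga8* (5.70-fold), *Itgb3* (3.47-fold), *Itga5* (3.00-fold), *Itgb1* (1.78-fold) and *Itgav* (1.65-fold), with adjusted p-values between 1.3e-05 and 0.00137. The other 3 had log2 differences of 0.55 (*Itga1*), 1.58 (*Itga3*) and 0.61 (*Itga6*), and all 10 passed as higher without KFs replicate 3 (43.8% of all genes). *Itga3* libraries did not overlap between any pair of cultured groups, at 121 to 149 CPM in KFc, 43.8 to 47.5 in TFc and 11.6 to 13.2 in HFc. It was 11.0-fold lower in HFc than in KFc (log2 −3.47, SE 0.80, adjusted p = 0.00386).

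In HFc against TFc, 4 genes differed, and 41.9% of all genes did. *Itgav* was 2.37-fold higher (adjusted p = 1.37e-06), *Itgb3* 2.32-fold higher (adjusted p = 0.00394) and *Itgb1* 1.76-fold higher (adjusted p = 1.01e-05), and *Itga5* was 1.54-fold lower (adjusted p = 0.0351). The *Itga5* call was lost on leaving out any 1 of the 6 libraries of these groups (adjusted p = 0.0576 to 0.0911). Without KFs replicate 3, 9 genes passed (48.6% of all genes), with *Itga8* the exception. In HFc against KFc, 6 genes differed (29.2% of all genes). *Itgav* was 1.44-fold higher (adjusted p = 0.00523), *Itga11* 11.0-fold lower (adjusted p = 5.07e-05), *Itga5* 4.63-fold lower (adjusted p = 3.69e-06), *Itga8* 3.84-fold lower (adjusted p = 0.00319), and *Itga2* 3.16-fold lower (adjusted p = 0.0384), beside *Itga3*. Leaving out HFc replicate 1, 2 or 3 or KFc replicate 1 or 3 took the *Itga2* adjusted p to 0.0866 to 0.104. Without KFs replicate 3, *Itgb3* joined them and 7 passed (36.3%).

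In transplanted cells the order of the organs changed for some genes. In HFs against TFs, 6 genes were higher and none lower (23.1% of all genes differed; 31% without KFs replicate 3, where 6 also passed). *Itga8* was 4.56-fold higher (adjusted p = 0.00325), *Itga2* 3.37-fold (0.0331), *Itgb3* 1.99-fold (0.0191), *Itga1* 1.81-fold (0.00991), *Itgb1* 1.33-fold (0.00771) and *Itgav* 1.30-fold (0.0433). Scaling by library size alone moved the median of all genes by −0.22 on the log2 scale in this comparison, and *Itga8* then stayed higher while the other 5 no longer passed and *Itga5* passed as lower. The *Itga2* call was lost without HFs replicate 2 or 3 or any TFs library (adjusted p = 0.0553 to 0.103). Those of *Itgav* and *Itgb3* were lost without TFs replicate 2 or 3 and, in turn, without HFs replicate 3 (*Itgav*, 0.0889) or HFs replicate 1 (*Itgb3*, 0.0628). In culture *Itga8* had differed by only 0.57 on the log2 scale between heart and tail (SE 0.44, adjusted p = 0.315). Scaling by library size alone also moved the median of all genes by −0.156 in HFc against TFc, −0.205 in HFs against KFs and −0.112 in the heart minus kidney response.

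In KFs against TFs, 7 genes were higher (29.1% of all genes differed). *Itgb1* (1.68-fold), *Itgav* (1.75-fold), *Itga5* (2.69-fold), *Itgb3* (2.90-fold) and *Itga2* (6.47-fold) also passed as higher without KFs replicate 3, at 1.61-fold, 1.57-fold, 2.77-fold, 2.26-fold and 2.80-fold. *Itga6* went from 4.25-fold to 1.66-fold (adjusted p = 0.000459), and *Itga3* from 8.60-fold (adjusted p = 0.00879) to 1.35-fold (adjusted p = 0.136). *Itga1* was then 1.61-fold lower in KFs (adjusted p = 0.0137), and 7 genes passed in all (35.1%). With all libraries but only KFs and TFs in the fit, *Itgb1* alone of the 7 passed, and the others had adjusted p = 0.0565 (*Itga5*), 0.0611 (*Itgav*), 0.07 (*Itgb3*), 0.0841 (*Itga2*), 0.131 (*Itga6*) and 0.161 (*Itga3*). *Itga11*, 7.05-fold higher in kidney than tail cells in culture, had a log2 difference of −0.54 between the transplanted groups (SE 0.44, adjusted p = 0.389) and of −0.09 without KFs replicate 3. Leaving out KFs replicate 1, its highest library, gave −1.49 (adjusted p = 0.00245). In HFs against KFs, 7 genes differed (33.2% of all genes), and 6 without KFs replicate 3 (38.8%). *Itga1* was 2.39-fold and *Itga8* 3.71-fold higher in HFs (adjusted p = 0.000554 and 0.00528), and *Itga5* was 3.59-fold lower (adjusted p = 3.33e-05). *Itga3* was 11.96-fold lower with all libraries and 1.87-fold lower without KFs replicate 3 (adjusted p = 0.00478), and *Itga6* 3.47-fold and 1.34-fold lower (adjusted p = 0.0167). *Itgav* (1.35-fold lower, adjusted p = 0.0167) did not pass without it (0.0602), nor without HFs replicate 1 (0.0531) or 2 (0.0699). *Itgb1* (1.27-fold lower, adjusted p = 0.0164) was also near the threshold, with adjusted p = 0.0706, 0.0608 and 0.0611 without HFs replicate 2, HFs replicate 3 and KFs replicate 2. With only HFs and KFs in the fit, *Itga5* alone of the 7 passed, and the others had adjusted p = 0.0702 (*Itga1*) to 0.297 (*Itgb1*).

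**Figure D4:**
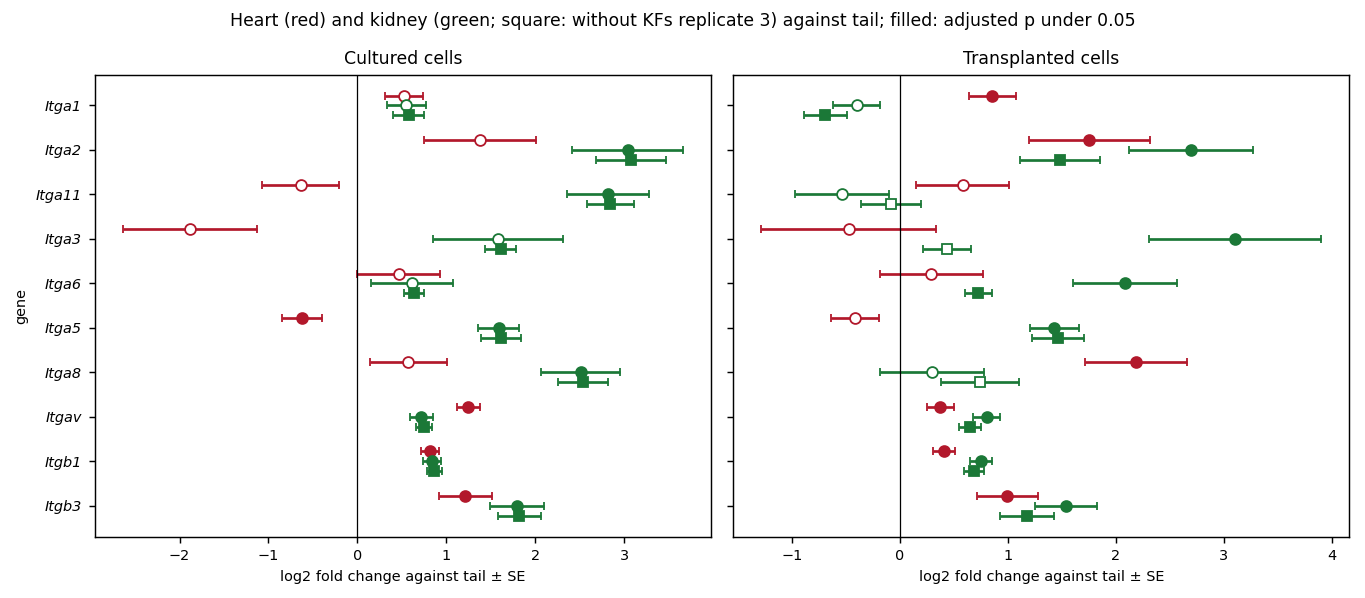
log2 fold change (± SE) of heart (red) and kidney (green) cells against tail cells, in culture (left) and after transplantation (right); circles are the fit of all 18 libraries, green squares the kidney value without KFs replicate 3, and filled symbols have an adjusted p under 0.05. Kidney values for *Itga11* and *Itga8* are 2.82 and 2.51 in culture and −0.54 and 0.30 after transplantation, and the *Itga3* and *Itga6* circles of transplanted kidney cells drop when KFs replicate 3 is left out.

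Whether the response itself differed between organs was tested as the difference of the log2 changes. The largest was for *Itga11*: the heart minus kidney difference was 4.57 on the log2 scale (SE 0.64, adjusted p = 0.000173), and the kidney minus tail difference was −3.35 (SE 0.63, adjusted p = 0.00325). Both passed without KFs replicate 3, at 4.18 for heart minus kidney and −2.93 for kidney minus tail. *Itga8* differed in the same way, by 3.83 between heart and kidney (SE 0.63, adjusted p = 0.000546) and by −2.21 between kidney and tail (SE 0.65, adjusted p = 0.0398). The latter was lost on leaving out KFs replicate 2, any KFc library, any TFc library or TFs replicate 2 or 3 (adjusted p = 0.0703 to 0.115), and in the fit of only the groups compared (0.0923), and held without KFs replicate 3 (adjusted p = 0.011). *Itgav* fell more in the heart than in the tail (difference −0.87, SE 0.18, adjusted p = 0.00288) and than in the kidney (−0.96, SE 0.18, adjusted p = 0.00126), and *Itga1* differed by 1.28 between heart and kidney (SE 0.31, adjusted p = 0.00655). These are 1 gene of 10 for heart minus tail (22.8% of all genes; 5 genes and 32.3% without KFs replicate 3), 2 for kidney minus tail (11.1%; 5 and 21.4%) and 4 for heart minus kidney (26.2%; 6 and 35.2%). For *Itga3* the sign of 2 differences turned with that library: the kidney minus tail value was 1.52 with it and −1.17 without it (adjusted p = 0.0078), and the heart minus kidney value −0.12 and 2.61 (adjusted p = 1.37e-05). No response difference of *Itgb3* passed (−0.22, −0.26 and 0.04, with SE of 0.40 to 0.41).

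Of 16 other integrin genes, 14 had enough counts to be tested, and 8 reached a group mean of 10 CPM. In transplanted cells 4 were higher and 2 lower in the heart, 4 and 4 in the kidney, and 5 and 2 in the tail, where 56.4%, 48.8% and 38.8% of all genes changed. Without KFs replicate 3 the counts were 6 and 2, 2 and 5, and 6 and 3 (62.1%, 51.4% and 47.3% of all genes). *Itgb8*, a partner of alpha v that presents latent TGF-beta, was at 84.5, 115 and 98.6 CPM in HFs against 25.3 to 26.9 CPM in HFc and rose 3.80-fold (adjusted p = 1.44e-06). It rose 3.73-fold in the kidney (29.8, 14.3 and 28.7 CPM against 6.15 to 6.81 CPM, adjusted p = 3.52e-06) and 3.09-fold in the tail (33.6 to 40.7 CPM against 10.6 to 12.2 CPM, adjusted p = 2.18e-05). *Itgb5*, a further alpha v partner, fell in the kidney (190 to 251 CPM in KFs against 444 to 483 CPM in KFc, 2.04-fold, adjusted p = 8.66e-05) and had log2 differences of −0.19 and −0.23 in heart and tail. *Itga9*, a receptor for tenascin and osteopontin, rose in all 3 organs (1.65-fold, 1.32-fold and 1.92-fold, adjusted p = 9.48e-05, 0.0107 and 2.37e-05). *Itga4*, the receptor for VCAM-1 and fibronectin, was at 213 to 226 CPM in HFc and at most 18.03 CPM in the kidney and tail libraries. It fell 4.12-fold in HFs, to 45.7 to 60.6 CPM (adjusted p = 9.92e-09), and rose 1.97-fold in the tail (adjusted p = 4.43e-05). The kidney log2 values without KFs replicate 3 were 1.71 for *Itgb8* (adjusted p = 8.08e-06), −0.96 for *Itgb5* (adjusted p = 0.000141) and 0.50 for *Itga9* (adjusted p = 0.00047).

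The leukocyte integrin genes *Itgal*, *Itgam* and *Itgb2* had their highest mean levels in KFc, at 14.8, 24.6 and 29.1 CPM, the group with the highest leukocyte marker sum. *Itgal* fell in all 3 organs, by 3.53-fold, 30.1-fold and 4.54-fold (adjusted p = 0.0048, 1.26e-06 and 0.00137). *Itgb2* fell in kidney and tail (3.06-fold and 2.64-fold, adjusted p = 0.00837 and 0.0291), and the *Itgam* values did not pass (adjusted p = 0.176 to 0.334). Leaving out KFs replicate 3 gave kidney log2 values of −4.47 for *Itgal* (adjusted p = 5.51e-08) and −1.18 for *Itgb2* (adjusted p = 0.00145). In that fit *Itgb2* and *Itgam* passed as higher in the heart (0.88 and 0.75, adjusted p = 0.00601 and 0.0403), and *Itgam* passed as lower in the tail (−0.93, adjusted p = 0.0243). The *Itgb4* log2 value in the kidney was 2.32 with that library (adjusted p = 0.04) and −1.01 without it (adjusted p = 0.0256).

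The cytoplasmic partners of the integrins, listed together with the membrane protein gene *Cd151*, moved mostly one way. Of 26 adhesion adaptor genes none was higher and 16 were lower in HFs, 1 was higher and 20 lower in KFs, and 1 was higher and 14 lower in TFs. Of all genes 28%, 26.1% and 18.6% were higher and 28.4%, 22.7% and 20.2% lower in these comparisons. The adaptors had median log2 fold changes of −0.67, −0.65 and −0.41, where the medians of all genes were 0.05, 0.09 and 0.00. Without KFs replicate 3 the heart counts were 1 and 18, the kidney counts 1 and 21, and the tail counts 2 and 17. In that fit 62.1%, 51.4% and 47.3% of all genes changed. In all 3 organs 12 of them fell, and the share of all genes that did so is not given here. The 5 with the largest mean change were *Lims2*, a PINCH protein of the ILK complex, *Zyx* (zyxin), a protein of tensed actin bundles, the tetraspanin *Cd151*, which associates with laminin-binding integrins, *Actn1* (alpha-actinin), which crosslinks actin, and *Vcl* (vinculin), which binds talin. *Zyx* was at 133 to 148 CPM in HFs against 416 to 427 CPM in HFc, at 214 to 297 CPM in KFs against 834 to 909 CPM in KFc and at 106 to 149 CPM in TFs against 469 to 482 CPM in TFc (log2 −1.60, −1.81 and −1.99, adjusted p = 1.3e-07, 6.05e-08 and 5.84e-08). *Vcl* changed alike in size, by log2 −1.26, −1.27 and −1.23, and *Actn1* by −1.81, −1.34 and −1.36. *Lims2*, at 5.46 CPM or more in every cultured library, changed by −1.97, −2.76 and −1.37, and *Cd151* by −2.14, −1.59 and −0.83. The kidney values without KFs replicate 3 were −1.82 (*Zyx*), −1.37 (*Vcl*), −1.41 (*Actn1*), −2.69 (*Lims2*) and −2.10 (*Cd151*).

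**Figure D5:**
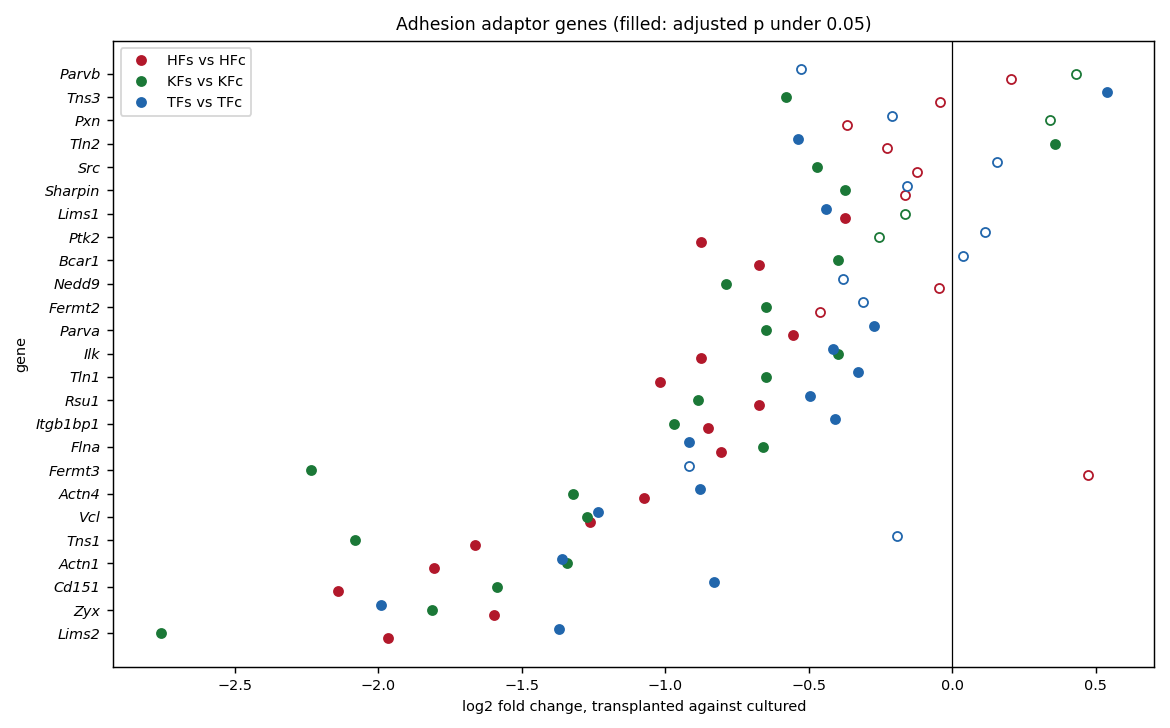
log2 fold change of transplanted against cultured cells for 25 adhesion adaptor genes in heart (red), kidney (green) and tail (blue); filled points have an adjusted p under 0.05, and *Fermt1* is left out for scale. Filled points lie left of 0 except *Tln2* in the kidney and *Tns3* in the tail.

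The ligands of these receptors were read from lists of 5 collagens, 10 laminins and 9 RGD ligands, of which 8 RGD ligands were tested. The counts below are to be read against 56.4%, 48.8% and 38.8% of all genes changed in heart, kidney and tail. Collagens were higher for 3, 3 and 4 of 5 genes in heart, kidney and tail and lower for 1, 2 and none. *Col3a1*, a fibrillar collagen of soft tissue, rose in all 3 (log2 3.00, 2.80 and 3.03, adjusted p = 7.12e-05, 0.000168 and 0.000146). *Col1a2* rose by log2 2.76, 2.09 and 1.35 (adjusted p = 1.45e-05, 0.000209 and 0.00672). In the kidney, where *Itga11* fell, *Col3a1* went from 2878 to 2979 CPM in KFc to 34930, 22010 and 4259 CPM in KFs replicates 1, 2 and 3. Laminins were higher for 3, 2 and 4 of 10 genes and lower for 2, 1 and 1, and *Lama4*, the mesenchymal and endothelial laminin chain, rose in each organ (log2 0.62, 1.61 and 1.85). Of RGD ligands 4, 2 and 2 of 8 were higher and 2, 3 and 4 lower. *Npnt* (nephronectin), the ligand of alpha 8, fell in all 3 organs by log2 −2.202, −2.12 and −2.58, from 73.9 to 82.6 CPM in HFc, 133 to 136 CPM in KFc and 20.3 to 21 CPM in TFc. *Thbs1* (thrombospondin 1) fell by log2 −1.81, −2.80 and −3.52 (adjusted p = 1.19e-05, 3.74e-07 and 1e-07). In the fit without KFs replicate 3 the collagens were higher for 3, 3 and 5 genes and lower for 1, 2 and none, the laminins higher for 4, 3 and 5 and lower for 2, 3 and 3, and the RGD ligands (9 tested) higher for 4, 3 and 3 and lower for 2, 3 and 4 (62.1%, 51.4% and 47.3% of all genes). The kidney log2 values were then 3.24 for *Col3a1*, 2.45 for *Col1a2*, 1.91 for *Lama4*, −2.72 for *Npnt* and −2.62 for *Thbs1*, and each passed.

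For each member, the genes most like it were those with the highest Pearson correlation of log2(CPM + 1) over the 18 libraries among 13798 genes with a mean of at least 1 CPM. The libraries of 1 group share cells and treatment, so these are descriptions. *Itgb1* was most like *Ctnna1* (r = 0.989), which encodes alpha-catenin, then *Pdzd8* (0.981) and *Mllt11* (0.979). *Itgav* was most like *Dcbld2* (0.968), *Nmt2* (0.961) and *Dusp4* (0.957), and *Itga5* like *Nptx2* (0.959), *Hoxc8* (0.937), a positional gene, and *Htr2a* (0.936). *Itgb3* stood next to *Ptbp3* (0.95), *Tnpo1* (0.944) and *Ireb2* (0.941), and *Itga3* to *Pitpnm3* (0.95), *Cdc42bpg* (0.936) and *Gclc* (0.93). *Itga8* was most like *C1qb* (0.949), *Spi1* (0.943) and *Laptm5* (0.931), all macrophage genes. *Itga11* was nearest to *Npc2* (0.935), *Rhoj* (0.931) and *Mmp11* (0.898), *Itga2* to *Cd2ap* (0.922), *Syne2* (0.918) and *Map3k5* (0.915), and *Itga1* to *Adcy9* (0.895), *Ehbp1* (0.894) and *Dop1b* (0.889). The values of *Itga6* with *Pkp4* (0.952), *Uap1* (0.936) and *Synrg* (0.917) were lower without KFs replicate 3 (0.868, 0.849 and 0.737).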

How the data were processed

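RNA of 18 libraries (3 per group) had been made with a stranded total-RNA kit for small inputs and read as 75-base single ends. The authors deposited expected counts per Ensembl gene from RSEM, all whole numbers. The paper's methods name Bowtie2 as the aligner RSEM called, and the submitters' processing notes name Bowtie. The paper gives GRCm38, while the submitters' processing notes name mm9, so coordinates here are those of GENCODE vM21 on GRCm38. Totals were 17927838 to 32245168 counts. No column of another sample was present.

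Counts were filtered with filterByExpr, TMM-scaled and fitted with edgeR 4.0.16 (quasi-likelihood, R 4.3.3), with 1 mean per group over all 18 libraries. A gene was called at a Benjamini-Hochberg adjusted p under 0.05 over 16577 genes, two-sided, and the SE is the log2 fold change over the root of F. The procedure was tested on simulated data for HFs against HFc. It called 46 of 99 genes simulated with a 2-fold change and 68 of 98 with a 4-fold change. Of 16013 genes simulated without a change it called 3. A gene that did not pass can therefore still have changed. The changed genes were a far smaller share of the 16210 genes in that simulation than the 56.4% called in the data. The adjusted p depends on this share, so these rates may not hold for the data. Counting error alone limits a count of 0 to 3 counts, or 0.089 to 0.18 CPM. CPM per kb uses the union of exons, and class shares were not tested.

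The members and lists were chosen with earlier results of these data known. All 10 members are named, other integrins with a group mean of at least 10 CPM, up to 5 adaptors and 5 ligands with the largest mean change among those called in all 3 organs, and the 3 most correlated genes per member. *Tln2*, *Tns3*, *Itga2b*, *Kap* and the other single genes of the marker lists were named after their values were seen. Alternatives were DESeq2 1.42.0, other scalings and filters, only the groups compared, a replicate block, and each library left out.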

Additional observations from a re-analysis of the deposited data

Results flagged for a closer look

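The transplant response of 4 integrin genes differed between organs by the test of the difference itself (edgeR, adjusted p under 0.05), in 7 comparisons of log2 changes. For *Itga11* the heart minus kidney value was 4.57 (adjusted p = 0.000173) and the kidney minus tail value −3.35 (adjusted p = 0.00325). For *Itga8* these were 3.83 (adjusted p = 0.000546) and −2.21 (adjusted p = 0.0398). *Itgav* had −0.956 for heart minus kidney (adjusted p = 0.00126) and −0.872 for heart minus tail (adjusted p = 0.00288), and *Itga1* had 1.28 for heart minus kidney (adjusted p = 0.00655). Each also passed without KFs replicate 3, with the same sign, and the *Itga8* value for kidney minus tail did not pass in most fits that left out another library.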

How the results depend on the processing

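Of 1810 refits of a member's log2 fold change, 1669 kept their call, 71 newly passed, 67 no longer passed and 3 passed with the opposite sign. A change of sign between values that did not pass is counted among the 1669. *Itga2* in HFs against KFs, for example, went from −0.94 to 0.286 without KFs replicate 3. The 3 reversals came without KFs replicate 3: *Itga6* in KFs against KFc (−0.54), and *Itga3* in kidney minus tail (−1.17) and heart minus kidney (2.61). Over all single left-out libraries these ranged from −0.54 to 1.25, from −1.17 to 2.01 and from −0.608 to 2.61. That fit, chosen after the library's values were known for comparisons without KFs, gave 9 integrin genes in HFc against TFc, 5 in heart minus tail and 5 in kidney minus tail. Of all genes 48.6%, 32.3% and 21.4% passed in these comparisons.

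Counts of integrin genes that moved by over 1.5 times were as follows, and the cause was not tested. Requiring a log2 fold change beyond 1 left 3 in HFs against HFc, 2 in HFc against TFc, 2 in HFs against TFs and 0 in heart minus tail. An adjusted p under 0.01 left 2 in TFs against TFc, 3 in HFs against TFs and 1 in kidney minus tail. DESeq2 gave 7 in HFc against TFc and 3 in heart minus tail, and library size alone 2 in HFs against TFs. Fits of only the groups compared gave 10 in HFc against TFc, 1 in KFs against TFs, 1 in HFs against KFs, 5 in heart minus tail and 1 in kidney minus tail. The shares of all genes called under these settings are not given here, so these counts are no result about the list.

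Leaving out 1 library at a time gave counts of 5 to 7 in HFs against HFc, 5 to 8 in KFs against KFc and 3 to 7 in TFs against TFc. Among cultured cells the ranges were 3 to 9 (HFc against TFc), 7 to 10 (KFc against TFc) and 5 to 7 (HFc against KFc). Among transplanted cells they were 3 to 6 (HFs against TFs), 7 to 8 (KFs against TFs) and 5 to 10 (HFs against KFs). For the response differences they were 1 to 5 (heart minus tail), 1 to 5 (kidney minus tail) and 4 to 6 (heart minus kidney). Of these fits, shares of all genes are given only for the one without KFs replicate 3.

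Libraries with the same replicate number did not deviate together (residual r from −0.139 to 0.079), so the number is not shown to pair them. With the replicate block, kidney minus tail had 1 call, as *Itga8* went to −2.24 (adjusted p = 0.0566), and *Itgav* in HFs against TFs went to 0.37 (adjusted p = 0.0652). The block changed no other member's call.

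With the longest transcript as length, collagen shares were 31.7% in HFs, 10.9% in HFc, 29.0% in KFc and 15.8% in TFc, laminin shares 3.19% in HFs, 5.03% in HFc, 3.60% in TFs and 10.9% in TFc, and the RGD share 61% in KFc. At low depth, *Itga2* in TFc and *Itga8* in sorted tail and kidney cells rest on the fewest counts.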
